A study of Homo sapiens with 6 samples.

Results

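The aldehyde dehydrogenases described here are 10 genes, ALDH1A1, ALDH1A2, ALDH1A3, ALDH1B1, ALDH1L1, ALDH2, ALDH3A1, ALDH3A2, ALDH8A1 and ALDH9A1. They were taken by name, as every probe set whose platform annotation gives a single gene symbol that is on this list. This gave 26 probe sets of 49293 that are not array controls, and 10 genes of 18132. A further probe set that carries ALDH1A3 together with another symbol was not used. The measurements are 6 oligonucleotide arrays of Huh7, an established human hepatocellular carcinoma cell line, grown to logarithmic phase: 3 from control cells and 3 from cells whose label gives KCa3.1 as silenced (genotype given as knockdown). How the knockdown was made, and what the control cells received, is not given in the labels. KCa3.1 is a calcium-activated potassium channel encoded by KCNN4, and the comparison asks which transcripts differ once it is silenced.

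Aldehyde dehydrogenases oxidise aldehydes to carboxylic acids with NAD+ or NADP+ as cofactor. In liver they clear acetaldehyde formed from ethanol, the aldehydes that arise when lipids are oxidised, and intermediates of amino acid, folate and carnitine metabolism, and they make retinoic acid from retinal. ALDH activity, often ascribed to ALDH1A1, is also used as a marker to sort stem-like tumour cells.

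Values are log2 intensities from RMA that were deposited after each probe set had been centred near 0, with the base taken from RMA's usual output, so a value of 0.5 means 0.5 log2 units above that probe set's own baseline. Which arrays set the baseline is not given in the sources used here, so only differences between arrays carry meaning. The centring removes the expression level, so no gene can be ranked by abundance, and whether the markers of hepatocytes or of any other cell type are present or absent cannot be read from these values. Differences are given as silenced minus control, and the threshold for a called change was an adjusted p under 0.05 (limma with Benjamini-Hochberg adjustment over the whole table). The labels do not say whether replicates are separate cultures, and p-values then reflect only the scatter among these arrays, which may be technical. In bulk RNA, fewer cells that express a gene and less RNA per cell cannot be told apart.

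The targeted gene did not bear out the label. KCNN4 was measured by 3 probe sets, all of the _x_at kind, whose probes can match other transcripts. Its mean over them was at -0.0062, 0.13 and -0.073 in control replicates 1 to 3 and at -0.055, 0.089 and 0.011 in silenced replicates 1 to 3, so the groups overlapped. The difference of -0.00033 had a 95% interval from -0.16 to 0.16 (limma adjusted p = 0.999), and the two-sided exact permutation p was 1, where 0.1 is the smallest p that 3 against 3 arrays allow. "Silenced" below therefore means the arrays labelled silenced, whatever the state of the channel. Across all genes, 13.3% were called changed, 7.14% higher and 6.19% lower, and 10.7% of the probe sets were called.

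Promoter sequences are shown for the 3 members called higher in these arrays, a choice made from the calls described below. Each line holds the 250 bases before a RefSeq transcription start (build GRCh38.p14), 5′ to 3′ on the gene's own strand, with matches to any of 4 searched motifs in capitals. The window of ALDH3A2 is at chr17:19647886-19648135 on the plus strand, that of ALDH1A1 at chr9:72953054-72953303 on the minus strand and that of ALDH1B1 at chr9:38392452-38392701 on the plus strand.
ALDH3A2: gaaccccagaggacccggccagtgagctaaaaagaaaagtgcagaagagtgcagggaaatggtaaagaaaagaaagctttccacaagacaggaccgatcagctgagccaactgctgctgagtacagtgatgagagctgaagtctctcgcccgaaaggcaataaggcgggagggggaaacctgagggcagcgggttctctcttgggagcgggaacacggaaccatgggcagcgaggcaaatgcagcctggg
ALDH1A1: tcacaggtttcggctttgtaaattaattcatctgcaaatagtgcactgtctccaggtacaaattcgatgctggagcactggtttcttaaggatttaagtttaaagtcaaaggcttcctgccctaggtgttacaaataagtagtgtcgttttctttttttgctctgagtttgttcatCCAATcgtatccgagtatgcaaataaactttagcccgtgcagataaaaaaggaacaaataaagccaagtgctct
ALDH1B1: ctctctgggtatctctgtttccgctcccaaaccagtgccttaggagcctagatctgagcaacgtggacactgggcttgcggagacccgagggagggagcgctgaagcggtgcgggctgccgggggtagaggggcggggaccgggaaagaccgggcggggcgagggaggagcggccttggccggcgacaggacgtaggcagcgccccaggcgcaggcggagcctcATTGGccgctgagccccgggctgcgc

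The motifs searched, on both strands, were the CCAAT box (CCAAT), the TATA box (TATAAA), the core to which the aryl hydrocarbon receptor binds (GCGTG) and the core of the antioxidant response element (TGACNNNGC). GCGTG can fall within TGACNNNGC, and no other pair of them can overlap in full. The windows of ALDH1A1 and ALDH1B1 each held a CCAAT box, beginning 74 and 26 bases before the start. The window shown for ALDH3A2 held none of the 4 motifs. A second RefSeq start of ALDH3A2 lies downstream, and its window, not printed, held a CCAAT box from 30 bases and a GCGTG from 76 bases before it. RefSeq promoter windows were matched for 8 of the 10 genes, 11 windows in all, and not for ALDH2 and ALDH3A1. A CCAAT box occurred in 6 of the 11, against 32.0% of 35116 windows of all genes, and GCGTG in 3 of the 11, against 32.2%. TATAAA occurred in 1 of the 11, that of ALDH1L1, against 10.7%, and TGACNNNGC in 0 of the 11, against 10.9%. These letters describe the windows and say nothing of binding.

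Of the 10 aldehyde dehydrogenase genes, 3 were called higher in the silenced arrays, ALDH3A2, ALDH1A1 and ALDH1B1, and 0 lower, and the other 7 did not pass (limma). That is 30% of the members, against 13.3% of all genes. At an unadjusted p under 0.05 there were 4 higher and 1 lower, against 12.7% and 11.9% of all genes. The median difference of the 10 genes was 0.11, against -0.0058 over all 18132 genes, and the median size of the difference, without sign, was 0.14 against 0.079. The median shift of the 10 was 0.20 when each gene was represented by its most variable probe set. In 5 of the 10 the control and silenced values did not overlap, which was so for 29.3% of all genes.

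**Figure D1:**
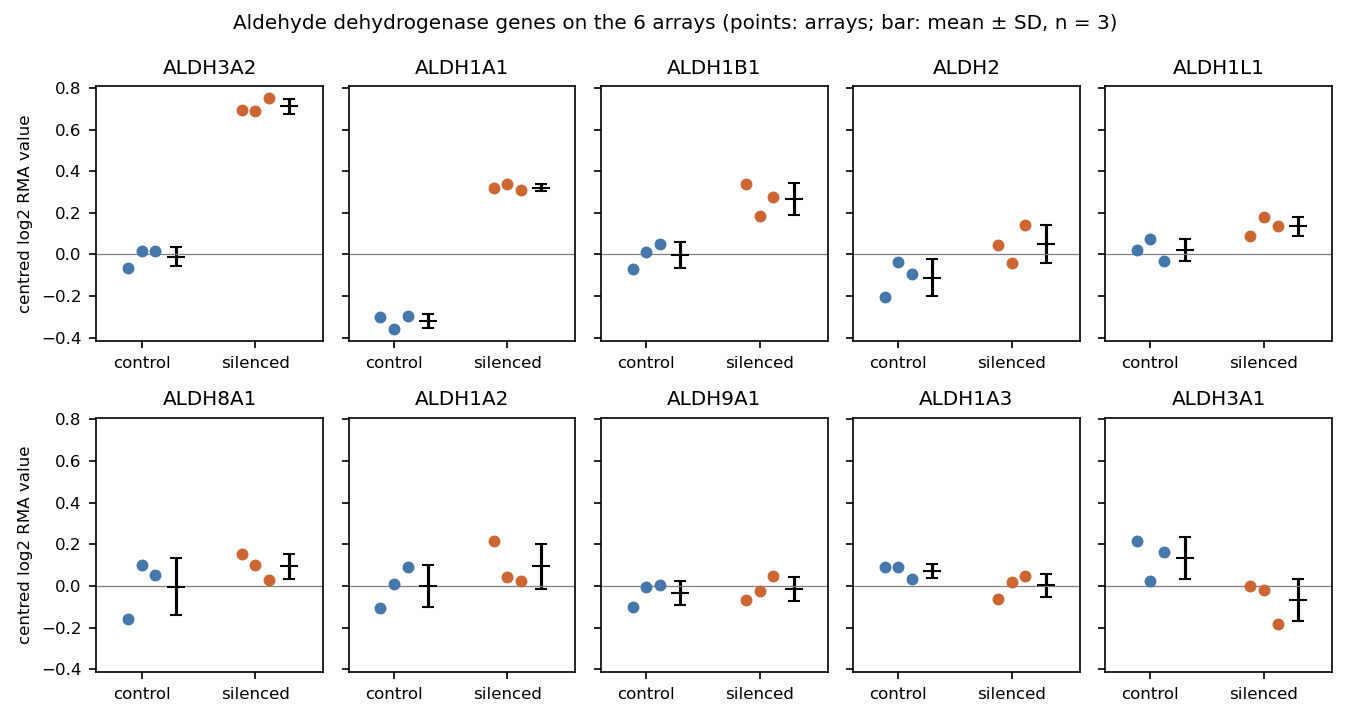
Centred log2 RMA value (y axis) of each of the 10 aldehyde dehydrogenase genes on the 3 control and 3 silenced arrays; points are arrays and the bars give the mean ± SD of 3. ALDH3A2 and ALDH1A1 show the widest gap between groups, while the groups of ALDH9A1, ALDH8A1, ALDH1A2, ALDH1A3 and ALDH2 overlap.

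ALDH3A2, the microsomal fatty aldehyde dehydrogenase whose loss causes Sjögren-Larsson syndrome, had the largest difference of the 10. It was at -0.065, 0.016 and 0.016 in control replicates 1 to 3 and at 0.70, 0.69 and 0.75 in silenced replicates 1 to 3, the order used for every gene below. All 3 silenced arrays lay above every control array, with no overlap. The means were -0.011 ± 0.046 and 0.71 ± 0.036 (SD, n = 3 each), a rise of 0.72 on the log2 scale (SE 0.054, 1.65-fold, limma adjusted p = 5.7e-05). By size of difference it ranked 270 of 18132 genes. Its 3 probe sets gave rises of 0.83, 0.69 and 0.65, each called on its own.

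ALDH1A1, a cytosolic retinal dehydrogenase, rose too. Its control arrays were at -0.30, -0.36 and -0.30 and its silenced arrays at 0.32, 0.34 and 0.31. All silenced arrays lay above all control arrays, and the arrays of a group lay close together. The rise was 0.64 on the log2 scale (SE 0.052, 1.56-fold, limma adjusted p = 8.5e-05), from -0.32 ± 0.035 to 0.32 ± 0.015 (SD, n = 3 each). It ranked 359 by size. The 3 probe sets rose by 0.68, 0.65 and 0.60, and all passed the test.

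ALDH1B1, a mitochondrial enzyme that oxidises acetaldehyde and retinal, was the third gene called higher. Control arrays lay at -0.070, 0.013 and 0.049 and silenced arrays at 0.34, 0.18 and 0.28. The groups did not overlap, and silenced replicate 2 came nearest to the controls. The difference was 0.27 (SE 0.063, 1.21-fold, limma adjusted p = 0.022). Neither of its 2 probe sets passed on its own, with differences of 0.21 (limma adjusted p = 0.052) and 0.33 (limma adjusted p = 0.074). The call of the gene was lost without control replicate 1 (0.24, limma adjusted p = 0.059), without control replicate 2 (0.28, limma adjusted p = 0.059), without silenced replicate 1 (0.23, limma adjusted p = 0.078) and without silenced replicate 3 (0.26, limma adjusted p = 0.079). ALDH3A2 and ALDH1A1 kept their calls whichever array was left out, with differences of 0.70 to 0.74 and 0.62 to 0.65.

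**Figure D2:**
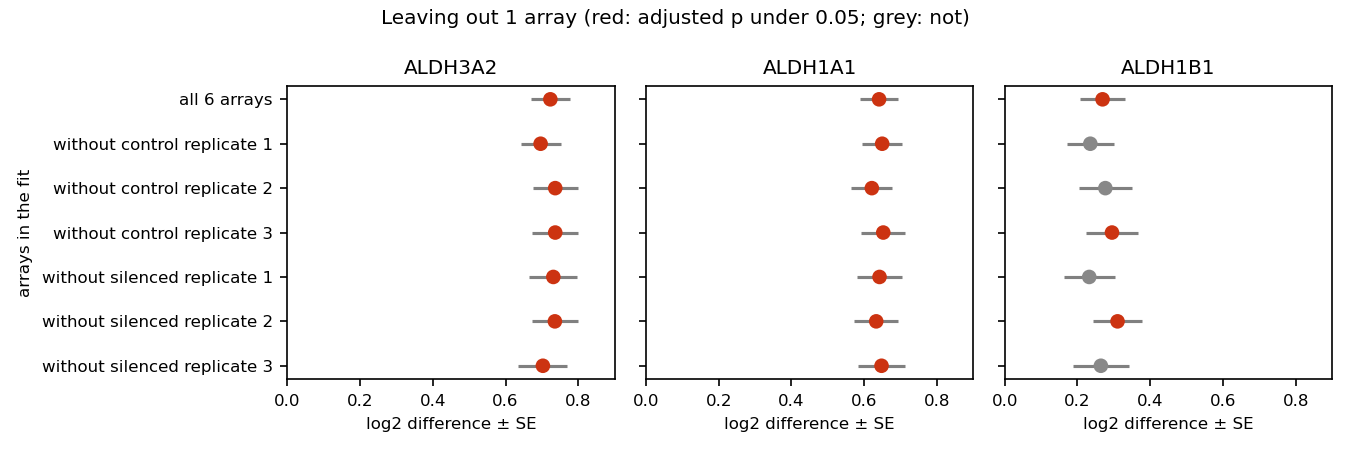
Log2 difference ± SE (x axis) of the 3 genes called higher, with all 6 arrays and with each array left out in turn (y axis); red points passed an adjusted p of 0.05 and grey points did not. ALDH3A2 and ALDH1A1 are red in every fit, and ALDH1B1 is grey in 4 of the 6 fits that leave out an array.

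The other retinal dehydrogenases did not pass. ALDH1A2, which makes retinoic acid in the embryo, was at -0.11, 0.0085 and 0.093 in control and at 0.22, 0.044 and 0.022 in silenced arrays, and the groups overlapped. Its difference was 0.097 (95% interval -0.075 to 0.27, limma adjusted p = 0.52). The 3 probe sets disagreed, with differences of 0.32, 0.069 and -0.097, and the 0.32 came with a value of 0.66 in silenced replicate 1 against 0.11 and 0.066 in the other silenced arrays. ALDH1A3, another retinal dehydrogenase, was at 0.093, 0.093 and 0.033 in control and at -0.060, 0.021 and 0.048 in silenced arrays, again overlapping. Its difference was -0.070 (95% interval -0.20 to 0.057, limma adjusted p = 0.53), and its 5 probe sets ranged from -0.16 to 0.022.

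ALDH2, the mitochondrial enzyme that removes most acetaldehyde, did not pass after adjustment. Its values were -0.21, -0.035 and -0.092 in control and 0.046, -0.040 and 0.14 in silenced arrays. Silenced replicate 2 lay within the control range, so the groups overlapped. The difference was 0.16 (95% interval 0.0021 to 0.32, limma adjusted p = 0.20), and both probe sets gave a positive difference, 0.18 and 0.14, without passing.

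ALDH3A1, a cytosolic enzyme for aromatic and medium-chain aldehydes and a known target of the aryl hydrocarbon receptor, had the lowest difference of the 10. It was at 0.22, 0.022 and 0.17 in control and at 0.00, -0.021 and -0.18 in silenced arrays. The groups did not overlap, but the lowest control array, replicate 2, lay close to the highest silenced array, replicate 1. The difference was -0.20 (SE 0.074, 95% interval -0.37 to -0.034, limma adjusted p = 0.12), measured by 1 probe set. ALDH3A1 and ALDH3A2 lie near each other on chromosome 17, with SLC47A2 between them in RefSeq's order of protein-coding genes.

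ALDH1L1, which converts formyltetrahydrofolate to tetrahydrofolate, gave different answers by probe set. At gene level it was at 0.020, 0.074 and -0.033 in control and at 0.087, 0.18 and 0.14 in silenced arrays, with no overlap. The difference of 0.11 did not pass (95% interval -0.013 to 0.24, limma adjusted p = 0.26). One of the pair of probe sets rose by 0.25 (limma adjusted p = 0.032), from 0.00, 0.00 and -0.047 to 0.24, 0.19 and 0.28, and the other differed by -0.024 (limma adjusted p = 0.91) with overlapping groups. The rising probe set held exactly 0 on 2 control arrays. So did the ALDH3A2 probe set that rose by 0.69 and the ALDH1B1 probe set with a difference of 0.21.

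ALDH8A1, which acts on an aldehyde intermediate of tryptophan breakdown, was at -0.16, 0.099 and 0.051 in control and at 0.15, 0.10 and 0.030 in silenced arrays. The groups overlapped, and the difference was 0.097 (95% interval -0.077 to 0.27, limma adjusted p = 0.52). ALDH9A1, which makes the precursor of carnitine and also oxidises aminobutyraldehyde, was at -0.10, -0.0043 and 0.0055 in control and at -0.068, -0.025 and 0.049 in silenced arrays. Of the 10 genes its difference was the smallest in size, 0.018 (95% interval -0.12 to 0.15, limma adjusted p = 0.90), with 3 probe sets between -0.0076 and 0.062.

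Counted by probe set, 7 of the 26 were called higher and 0 lower (limma), against 5.82% and 4.85% of all probe sets. They were the 3 of ALDH3A2, the 3 of ALDH1A1 and 1 of ALDH1L1. A positive difference was found in 19 of the 26, among them the 3 of ALDH3A2 and the 3 of ALDH1A1. The share of positive differences over all probe sets was not counted, so this number has nothing to be set against. In 11 the groups did not overlap, which held for 26.7% of all probe sets. Probe sets of a gene share transcripts and are not independent.

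**Figure D3:**
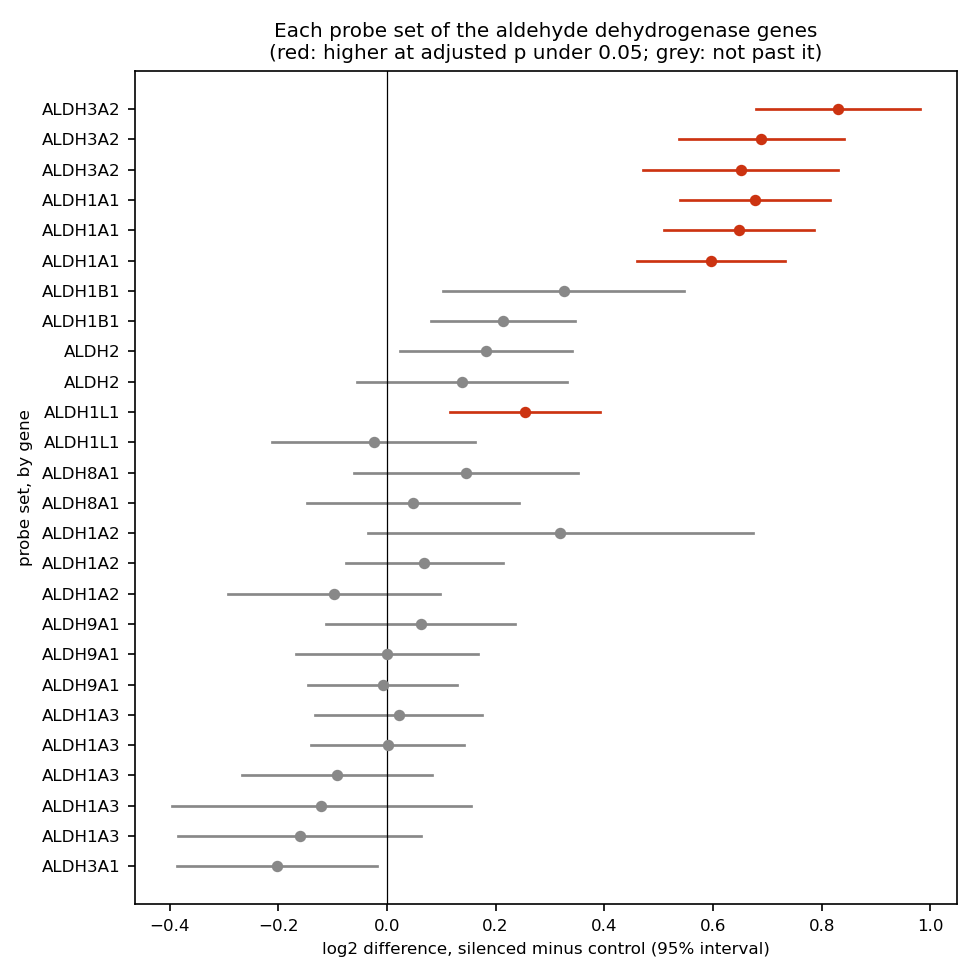
Log2 difference with its 95% interval (x axis) for each of the 26 probe sets, ordered by gene (y axis); red marks an adjusted p under 0.05 and grey the rest. The probe sets of ALDH3A2 and ALDH1A1 lie together between 0.60 and 0.83, whereas those of ALDH1A2 and ALDH1L1 fall on both sides of 0.

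The 3 genes outside the family whose values on the 6 arrays lay closest to those of ALDH3A2, by Euclidean distance, were CPM (0.19), TESC (0.20) and ADAM23 (0.21). Their differences were 0.68, 0.60 and 0.85 on the log2 scale. The distance was taken on the centred values, so it depends on the baseline of each probe set as well as on the difference. Among the genes beside the members whose calls held in every fit, a choice made after values were seen, SLC47A1 precedes ALDH3A2 on chromosome 17 and encodes an organic cation exporter. It rose by 0.76 (SE 0.055, limma adjusted p = 4.6e-05), or by 1.34 with its most variable probe set, while SLC47A2 on the other side had a difference of -0.11 (limma adjusted p = 0.42). On chromosome 9, TMC1 and ANXA1 flank ALDH1A1. ANXA1, which encodes annexin A1, fell by 0.63 (limma adjusted p = 0.00071), against the direction of ALDH1A1, and TMC1 had a difference of -0.077 (limma adjusted p = 0.64).

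The other 9 aldehyde dehydrogenases on the array, which were not among the 10, gave 2 higher, 1 lower and 6 not past the test, with a median difference of 0.0076. The share called was 33.3%, against 13.3% of all genes. ALDH4A1, the mitochondrial enzyme of proline breakdown, was at -0.44, -0.33 and -0.42 in control and at -0.0096, -0.0047 and 0.12 in silenced arrays. It rose by 0.43 (SE 0.062, limma adjusted p = 0.0020), and by 0.76 with its most variable probe set. ALDH3B1, which oxidises lipid aldehydes at membranes, fell by 0.40 (SE 0.076, limma adjusted p = 0.0082), from 0.25, 0.18 and 0.060 to -0.36, -0.16 and -0.19, or by 0.61 with its most variable probe set. ALDH5A1, which oxidises succinate semialdehyde from GABA, rose by 0.20 (limma adjusted p = 0.048), but passed in only 4 of 15 alternative fits. It lost its call when any of the 6 arrays was left out (differences 0.18 to 0.23) and had a limma adjusted p of 0.12 with the replicate block. The call was also lost with specific probe sets only, the most variable probe set and quantile normalization. So it was with probe sets at 0 on 2 or more arrays left out. In each of these fits 1 gene of the list was higher. ALDH6A1, ALDH7A1, ALDH16A1, ALDH18A1, ALDH1L2 and ALDH3B2 did not pass, with differences of 0.22, 0.12, -0.13, 0.0076, -0.096 and -0.0076.

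Genes that supply or remove the same substrates were counted from lists chosen with earlier results of these data known, so the counts only describe. Of all genes, 13.3% were called, 7.14% higher and 6.19% lower. At an unadjusted p under 0.05 (limma), 12.7% of all genes were higher and 11.9% lower. Of 11 alcohol dehydrogenase and ethanol oxidation genes 2 were higher, 0 lower and 9 not past (limma, 2 higher and 1 lower at an unadjusted p under 0.05). The share called was 18.2%, near the 13.3% of all genes, and the median difference was -0.035. ADH6 rose by 1.12 (limma adjusted p = 2.7e-05) and ADH5, the formaldehyde-clearing class, by 0.32 (limma adjusted p = 0.0063).

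The retinoid pathway was counted in 3 lists. Of 11 retinol and retinal oxidoreductases 4 were higher and 0 lower (limma, 4 and 1 at an unadjusted p under 0.05). This was 36.4% called, against 13.3% of all genes, with a median difference of 0.046. AKR1B10, an aldo-keto reductase that turns retinal back to retinol, rose by 2.73, and RDH10 and RDH11, which oxidise retinol and reduce retinal respectively, by 0.52 and 0.29. AKR1B15 rose by 2.48, but its sequence is close to that of AKR1B10, which makes the value of its single probe set uncertain. Of 11 genes of retinoid supply and storage 0 passed (limma, 1 higher and 0 lower at an unadjusted p under 0.05). With the most variable probe set 1 of them was higher. When probe sets at 0 on 2 or more arrays were left out, 1 of 10 was higher. Among 16 genes of retinoic acid binding, clearance, receptors and targets 0 were higher and 1 lower, or 6.25% called (limma, 0 and 3 at an unadjusted p under 0.05). The lower gene was CYP26B1, which degrades retinoic acid, at 0.32, 0.32 and 0.24 in control and 0.052, -0.00069 and -0.094 in silenced arrays, where it fell by 0.31 (SE 0.060, limma adjusted p = 0.0096), or by 0.53 with its most variable probe set. Without control replicate 3 this list had 2 lower genes. The oxidoreductases had 1 lower gene without control replicate 1 and 1 with array weights.

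Of 22 genes that handle fatty aldehydes and aldehydes from lipid peroxidation, the substrates of ALDH3A2 among them, 7 were higher, 0 lower and 15 not past (limma, 8 and 0 at an unadjusted p under 0.05). AKR1C1 rose by 0.84 and AKR1C2 by 0.73. These aldo-keto reductases are near-identical in sequence, so a probe set for 1 of them can also bind transcripts of the other. GSTA4, a glutathione transferase for hydroxynonenal, rose by 0.77, and CYP4F3, a fatty acid hydroxylase, by 0.71. Of the list 31.8% were called, against 13.3% of all genes, and its median difference was 0.075.

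Of 23 folate genes, the pathway of ALDH1L1, 1 was higher, 7 were lower and 15 did not pass. The share called was 34.8%, against 13.3% of all genes, and the median difference was -0.096. Only 2 were lower when control replicate 2 or 3, or silenced replicate 1 or 3, was left out, 3 without silenced replicate 2, 3 with the replicate block and 4 with the most variable probe set. With array weights 9 were lower, and without control replicate 1 there were 8. SHMT2, the mitochondrial serine hydroxymethyltransferase, fell by 0.51 and the mitochondrial folate carrier SLC25A32 fell by 0.30. SLC46A1, a folate transporter, fell by 0.25. It lost its call with control replicate 2 or 3 left out, and with each silenced replicate left out (differences -0.26 to -0.21). Over 15 alternative fits SLC46A1 passed in 9. GLDC of the glycine cleavage system rose by 0.39.

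Of 12 kynurenine pathway genes, in which ALDH8A1 acts, 3 were higher and 1 lower. The share called was 33.3%, against 13.3% of all genes, and the median difference was 0.017. TDO2, which opens the pathway, rose by 1.63 and the aminotransferase AADAT by 0.79. ACMSD, whose product is the substrate of ALDH8A1, rose by 0.47. It no longer passed when any control array or silenced replicate 1 or 2 was left out (differences 0.37 to 0.51). With array weights ACMSD did not pass either (difference 0.34, limma adjusted p = 0.13). KYNU fell by 0.22 but did not pass when any array was left out (differences -0.24 to -0.19) or with the replicate block. Nor did it pass when the median over its probe sets was used.

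Of 17 genes of carnitine synthesis and of amine aldehydes, the field of ALDH9A1, 3 were higher and 3 lower. The share called was 35.3%, against 13.3% of all genes, and the median difference was 0.092. BBOX1, the enzyme that acts directly after ALDH9A1 in carnitine synthesis, fell by 0.86 (limma adjusted p = 0.0022), from 0.57, 0.86 and 1.17 to 0.029, -0.023 and 0.00. GAD1, which makes GABA, and SMOX, which oxidises spermine, fell by 0.44 and fell by 0.42, and MAOB, a monoamine oxidase, rose by 0.58.

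A pair of lists covered transcription factors known to act on aldehyde dehydrogenase genes. The share called was 37.5% of the aryl hydrocarbon receptor list and 52.9% of the NRF2 list, against 13.3% of all genes. Of 8 genes of the aryl hydrocarbon receptor list 1 was higher and 2 were lower. At an unadjusted p under 0.05 (limma), 1 was higher and 3 were lower. The count of lower genes was 3 with quantile normalization, with array weights and with the replicate block. It was 1 without control replicate 3 or silenced replicate 2 or 3. With specific probe sets only it was 0, where CYP1B1 had no value and AHR did not pass (difference -0.30, limma adjusted p = 0.10). CYP1B1 fell by 0.60 (by 0.99 with its most variable probe set) and the receptor gene AHR fell by 0.34, which did not pass when control replicate 1 or 3 or silenced replicate 2 or 3 was left out (differences -0.33 to -0.30). NQO1, which is also on the NRF2 list, rose by 0.26, its call lost without silenced replicate 3 (difference 0.26). Of 17 genes of the NRF2 list 9 were higher and 0 lower (limma, 10 and 1 at an unadjusted p under 0.05), with a median difference of 0.29. SRXN1 rose by 1.13, GPX2 by 0.93, OSGIN1 by 0.74 and ABCC2 by 0.59.

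**Figure D4:**
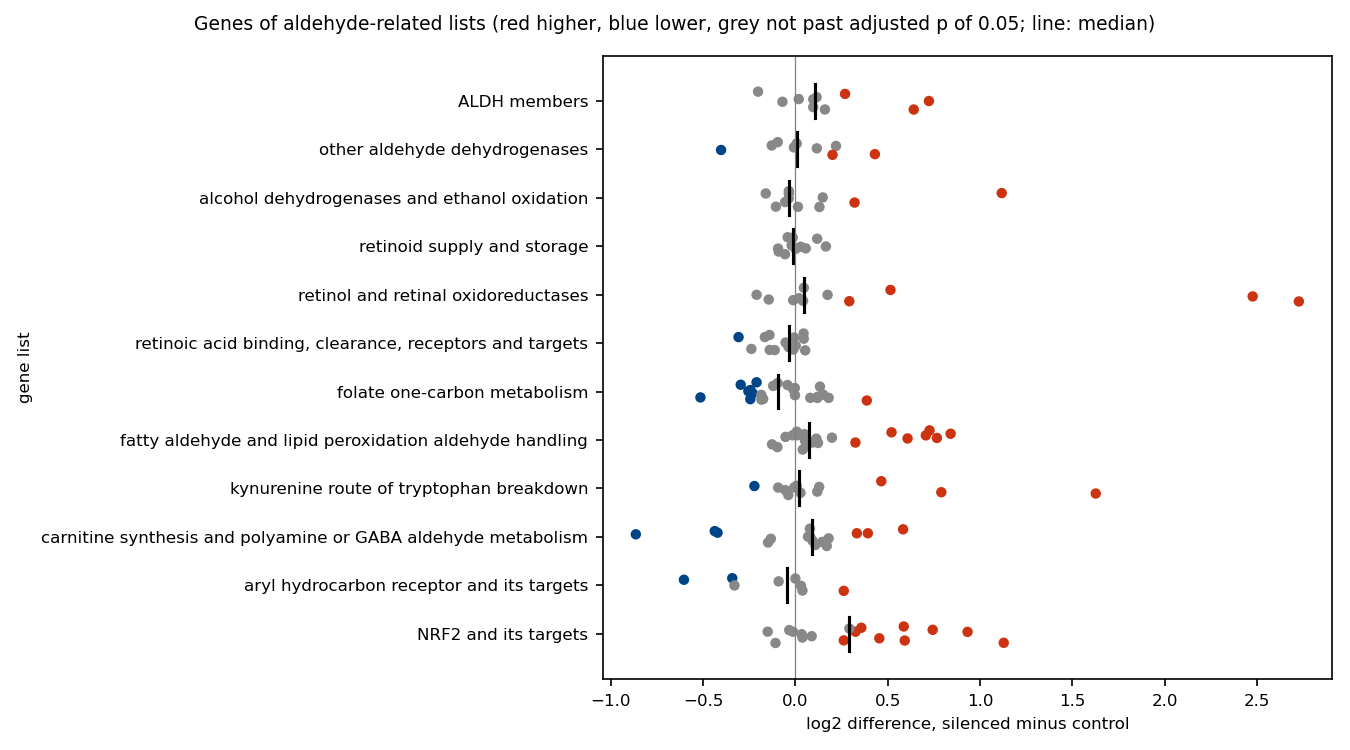
Log2 difference (x axis) of every measured gene of the 10 aldehyde dehydrogenases and of 11 related lists (y axis); red points were called higher, blue lower and grey neither, and the black line is the median. The list of NRF2 and its targets has the highest median, 0.29, and AKR1B10 is the point farthest right.

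Marker lists of cell types were counted in the same comparison. Of 9 measured hepatocyte and hepatoma markers 6 were higher, 0 lower and 3 not past (limma, 7 higher and 1 lower at an unadjusted p under 0.05). The share called was 66.7%, against 13.3% of all genes. Only 5 were higher when any array but control replicate 1 was left out. With the most variable probe set 5 were higher and 1 lower. The mean centred value of the 9 ran from -0.28 to -0.22 in control and from 0.11 to 0.12 in silenced arrays. All 4 biliary markers were lower, or 2 of them when control replicate 2 or 3, or else silenced replicate 1 or 2, was left out, with means of 0.12 to 0.27 and -0.27 to -0.14. Of 6 fibroblast and stellate cell markers 1 was higher and 5 did not pass, or 16.7% called, with means of -0.11 to -0.066 and -0.029 to -0.00077. The median difference of the 6 was 0.021, so the separated means do not stand for the list as a whole. Of 4 endothelial and 4 blood cell markers 0 passed (limma, 0 endothelial and 1 blood cell marker at an unadjusted p under 0.05), and their means overlapped between groups. Since the centring removed levels, which markers are absent is not known, and the part of these shifts in the rise of ALDH3A2, ALDH1A1 and ALDH1B1 was not tested.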

How the data were processed

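Values are log2 RMA intensities that the authors deposited as 1 table of 49395 probe sets by 6 arrays. RMA, which corrects background, normalises arrays by quantiles and summarises probes, is named without a version in the submitters' processing notes. From the values, each probe set was then centred near 0. The log base is RMA's usual output, not stated, and the arrays' medians are all 0. An exact 0 on at least 1 array occurs in 80.6% of probe sets, which can narrow the spread within a group.

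After 102 control probe sets were left out, 44988 of the 49293 others carried 1 symbol, 1832 several and 2473 none here. Single-symbol probe sets were averaged per gene. The fit used lmFit and eBayes of limma 3.58.1 (R 4.3.3), with the 6 arrays and the group as only term, and the script was tested on simulated data. The precision is limited by 3 arrays per group. The members and lists were chosen with earlier results of these data known. Genes named are KCNN4, the members, all other aldehyde dehydrogenases, up to 4 largest called changes per list, and the 3 nearest patterns of the member with the largest rise (no member was called lower). The genes next to 2 members were added. Listed genes without a single-symbol probe set are not analysed here. Alternatives were other ways to combine or filter probe sets, array scaling, robust eBayes, array weights, the replicate block and leaving out each array.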

Additional observations from a re-analysis of the deposited data

How the results depend on the processing

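Over 15 alternatives, ALDH3A2 (0.70 to 0.83) and ALDH1A1 (0.62 to 0.68) stayed higher and past the threshold in all 15, and ALDH1B1 stayed higher in all 15 but past it in 10. Besides the 4 left-out arrays given with its values, it lost the call with its most variable probe set (0.33, limma adjusted p = 0.075). The median difference of the 10 genes was 0.20 with the most variable probe set. The 7 members that did not pass passed in none of the alternatives. ALDH1L1 changed sign, to -0.024, when probe sets at 0 on 2 or more arrays were left out, which removes its rising probe set. All probe sets called numbered 3342 with specific probe sets, where fewer were tested, and 3252 to 4592 with 1 array left out (5261 with all). No specific probe set was left for KCNN4, ADH5, AKR1B15, CYP1B1 or SRXN1, and ALDH16A1 was lost with the probe sets at 0, so these have no value there. With the most variable probe set GAD1 fell by 0.72, KYNU fell by 0.48 and SLC46A1 fell by 0.42. The replicate block changed no call among the 10 genes. Same-numbered control and silenced arrays had correlations of -0.036, -0.058 and -0.029 after group means were removed. No differently numbered arrays were set beside them, so whether the numbers pair the arrays is not settled. With the replicate block the 3 calls stayed at differences of 0.72, 0.64 and 0.27. No filter on dim probes could be run, since centred values hold no signal over background.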
